A study of Homo sapiens with 3 samples.

Results

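The core of the spliceosome is made of 5 small nuclear ribonucleoproteins (snRNPs), which are named after the U1, U2, U4, U5 and U6 RNAs that they carry, and of proteins that join them on the pre-mRNA. The 42 genes described here encode such proteins. They were chosen by name, as the protein-coding genes of the SF3A and SF3B, SNRPA to SNRPG and PRPF families together with SNRNP27, SNRNP40, SNRNP70, SNRNP200, U2AF1, U2AF2, EFTUD2, SART1 and SF1, and the choice used no measured value. They are 42 of the 58051 genes in the deposited counts and of the 19629 protein-coding genes among them, and they lie on 16 chromosomes.

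Total RNA was sequenced after depletion of ribosomal RNA in 3 replicates of H9, an established line of human embryonic stem cells (hESCs), which is labelled as wild type and was left without treatment. The deposited values are whole-number read counts per gene, with totals of 10390984, 12024802 and 8655155 in replicates 1, 2 and 3, of which 77964, 89552 and 63016 lay on the 42 genes. There is 1 condition, so no groups were compared, and the labels do not say whether the replicates were separate cultures; the SDs given here are over the 3 replicates and may be technical. In TPM, a count scaled to gene length and library, all 10 pluripotency genes examined lay between 258.6 (SALL4) and 2576 (LIN28A). Of 14 markers of other cell types, 8 were below 3.35 TPM, with HAND1 lowest at 0.306 TPM. NES, THY1 and KDR were above 26.96 TPM, and COL1A1, MIXL1 and COL1A2 lay between, at 14.6, 22.3 and 25.6 TPM. The fibroblast markers examined, COL1A1, COL1A2 and THY1, were thus all above 3.35 TPM. Of the 14 markers, NES, CXCR4 and THY1 are also expressed by pluripotent cells, so their levels do not tell the cell types apart. Replicate 3 stood apart, since 1.5% of protein-coding genes differed beyond counting error between replicates 1 and 2 and 13.8% over all 3 replicates.

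In splicing, U1 pairs with the 5′ splice site, while SF1 and the U2AF dimer mark the branch site and the 3′ splice site. U2 then takes the place of SF1, the tri-snRNP of U4, U6 and U5 joins, U4 is unwound from U6, and the catalytic RNA core forms inside the U5 protein PRPF8. The Sm proteins form a ring around the U1, U2, U4 and U5 RNAs, and every cell that splices pre-mRNA needs these proteins. Levels are given in TPM, which are counts divided by gene length and scaled to the same sum in each replicate, so that genes of unlike length can be set side by side. Gene length was the union of all annotated exons of a gene. Some members have long alternative exons, and the length of the MANE Select transcript, 1 representative transcript per gene, was used as an alternative wherever it is named.

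Of the 42 genes, 39 (92.9%) were in the high class, the upper of 3 equal classes of expressed protein-coding genes by mean TPM, which starts at 26.96 TPM and holds 28.8% of all protein-coding genes. PRPF40B was in the medium class, PRPF18 and U2AF1 were in the low class, and no member was nonexpressed, which means below 0.01 TPM. The median over the members was 137.6, 135.1 and 127.7 TPM in replicates 1, 2 and 3, with a mean of 133.4 ± 5.15 TPM (SD, n = 3). Over the mean levels of the members the median was 134.0 TPM, and 136.3 TPM without replicate 3, with 39 members again in the high class. All protein-coding genes had a median of 7.10 TPM and the high class one of 60.7 TPM, which 36 of the members exceeded. A level of 100 TPM was passed by 28 members, by 8.25% of protein-coding genes and by 28.6% of the high class. The members were 0.214% of protein-coding genes and held 0.805%, 0.793% and 0.766% of protein-coding TPM, which is 0.788 ± 0.0201% (SD, n = 3).

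**Figure D1:**
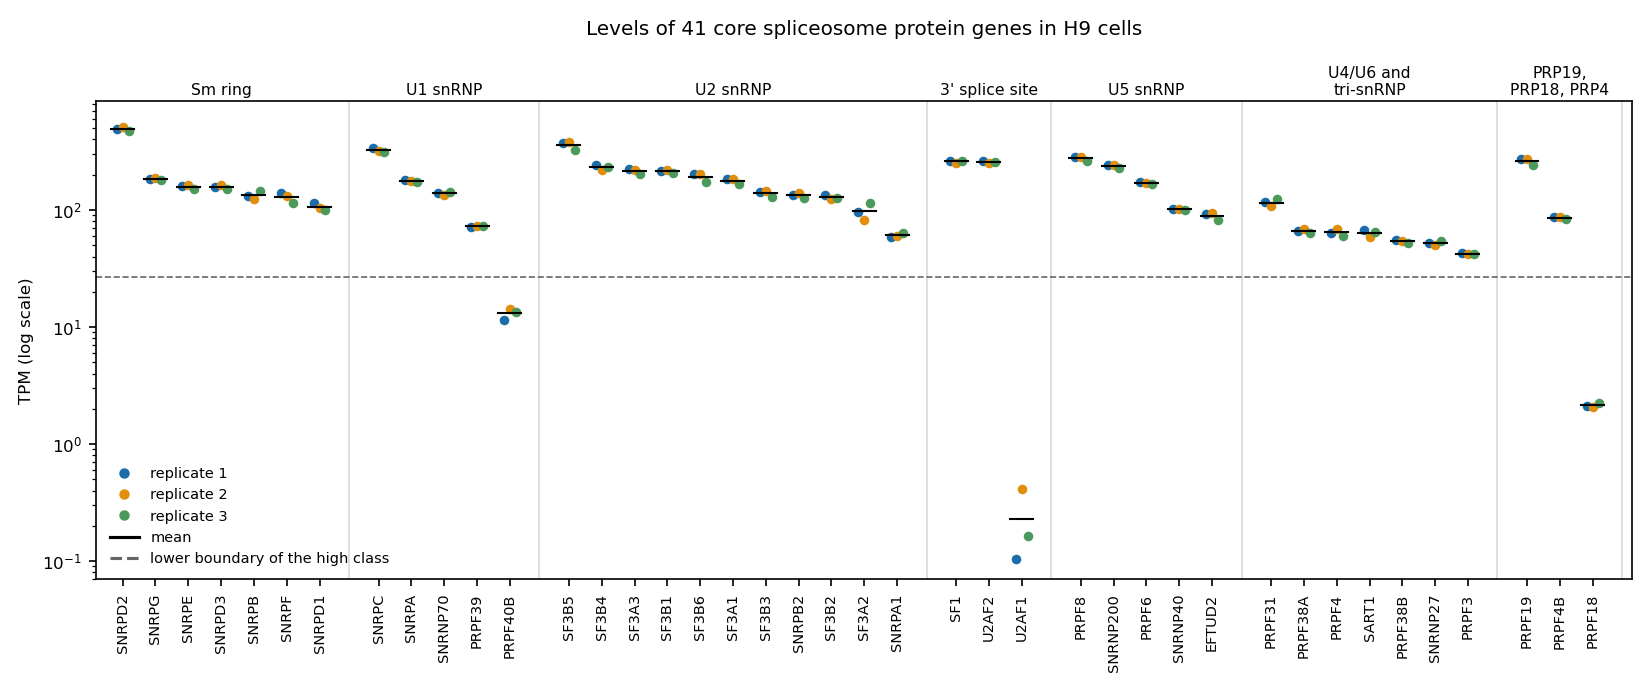
TPM (log axis) of 41 of the genes, ordered by complex, with 1 point per replicate, the mean as a black line and the lower boundary of the high class as a dashed line. In the plot, PRPF40B, PRPF18 and U2AF1 lie below the boundary and the other genes above it.

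The promoters of 4 members are shown because they stand at the upper end of the order of levels and differ in the short motifs they hold. Each is the 250 bases before the transcription start in RefSeq (GRCh38.p14), written 5′ to 3′ on the strand of the gene, and capitals mark a match on either strand to CCGGAAG (a motif of ETS factors), GCGCATGC (NRF1), AAGATGGC (YY1), GGGCGG (the GC box bound by SP1) or TATAAA (the TATA box).
SNRPC, chr6:34757255-34757504, plus strand: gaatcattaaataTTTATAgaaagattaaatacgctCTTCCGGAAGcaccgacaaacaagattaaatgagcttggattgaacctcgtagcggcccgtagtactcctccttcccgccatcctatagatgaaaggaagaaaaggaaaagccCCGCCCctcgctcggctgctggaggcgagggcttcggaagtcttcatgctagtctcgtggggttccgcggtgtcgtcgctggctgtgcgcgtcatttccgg
U2AF2, chr19:55654785-55655034, plus strand: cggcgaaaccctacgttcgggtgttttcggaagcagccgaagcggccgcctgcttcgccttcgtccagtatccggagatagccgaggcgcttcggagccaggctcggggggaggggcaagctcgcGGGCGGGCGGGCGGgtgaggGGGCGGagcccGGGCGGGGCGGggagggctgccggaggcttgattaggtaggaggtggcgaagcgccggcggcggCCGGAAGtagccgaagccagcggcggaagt
SF3B4, chr1:149927804-149928053, minus strand: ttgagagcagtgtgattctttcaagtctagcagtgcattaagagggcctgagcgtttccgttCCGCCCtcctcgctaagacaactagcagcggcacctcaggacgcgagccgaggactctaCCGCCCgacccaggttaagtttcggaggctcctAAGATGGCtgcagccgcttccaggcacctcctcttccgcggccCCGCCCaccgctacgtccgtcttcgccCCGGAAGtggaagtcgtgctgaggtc
SNRPD2, chr19:45691954-45692203, minus strand: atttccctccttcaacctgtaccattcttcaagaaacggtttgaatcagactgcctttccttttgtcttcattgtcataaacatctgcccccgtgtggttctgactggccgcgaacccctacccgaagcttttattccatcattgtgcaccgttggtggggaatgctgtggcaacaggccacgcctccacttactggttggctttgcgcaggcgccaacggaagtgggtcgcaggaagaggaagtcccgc
The SNRPC sequence holds the ETS motif, a GC box and a TATAAA match. U2AF2 and SF3B4 hold the ETS motif and GC boxes, and SF3B4 also AAGATGGC. In SNRPD2, the member with the highest level, none of the 5 motifs is found in this stretch.

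A promoter window of 300 bases, from 250 before to 50 after the start, was found for 36 of the 42 members and for 14570 protein-coding genes. The ETS motif CCGGAAG occurred in 18 of the 36 members (50%), against 15.1% of all windows and 24.0% of the windows of high-class genes. Members with it were spread over the complexes, with SNRPB, SNRPE and SNRPG of the Sm ring, SNRPC of U1, SNRPA1, SNRPB2, SF3A1, SF3A2, SF3A3, SF3B2, SF3B4 and SF3B6 of U2, U2AF2, SNRNP200 and PRPF6 of U5, SART1 and SNRNP27 of the tri-snRNP, and PRPF18. In SNRPE and SNRPG the RefSeq start used lay 248 and 282 bases from the start of the MANE Select transcript. The ETS matches of these 2 genes lie within the annotated gene and not before it. The same holds for other members, such as U2AF2, SF3B2 and SNRNP200, whose whole windows lie within the annotated gene. The GC box GGGCGG stood in 20 members (55.6%), against 62.8% of all windows and 77.1% of those of the high class. Windows with AAGATGGC numbered 4 (11.1%; 4.30% of all and 7.98% of high-class windows), those with GCGCATGC numbered 3 (8.33%; 4.52% and 6.36%), and TATAAA was found in SNRPC alone (2.78%; 9.33% and 4.87%). None of the motifs was found in 6 windows. These are matches of letters, counted on both strands without regard to overlap with one another, and binding was not measured. The median GC content of the members' windows was 61.5%, below the 64.0% of all windows and the 66.3% of high-class windows.

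**Figure D2:**
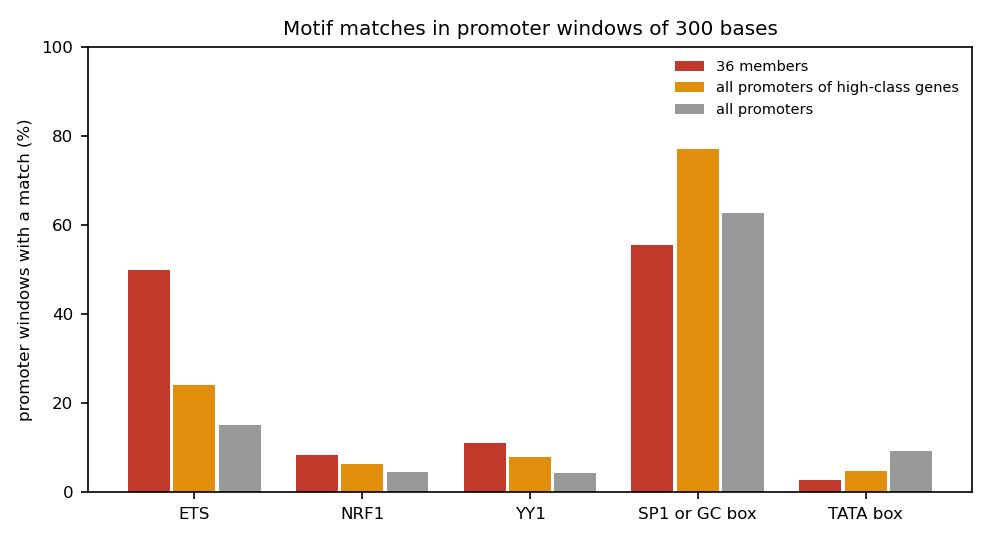
Share of promoter windows of 300 bases with at least 1 match to each motif (percent, bars from 0), for 36 members, for all windows of high-class genes and for all 14570 windows. The ETS motif is in 50% of the members' windows and 15.1% of all windows, and the GC box is less frequent in the members than in both others.

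A second gene that starts within 1000 bases on the opposite strand, reading away from the member, was annotated for 13 of the 42 members (31.0%), against 13.3% of protein-coding genes and 19.6% of the high class. Among these partners were protein-coding genes, such as CDC26 at PRPF4, ORC1 at PRPF38A, COG4 at SF3B3, ZCCHC17 at SNRNP40 and GUCD1 at SNRPD3, and divergent transcripts named after the member, as at SF1, PRPF19, SNRPF, PRPF39 and SNRPA1.

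The Sm ring is built from SNRPB, SNRPD1, SNRPD2, SNRPD3, SNRPE, SNRPF and SNRPG, in equal numbers in each assembled snRNP. All 7 genes were in the high class, with a summed level of 1358 ± 37.5 TPM (SD, n = 3). SNRPD2 (ENSG00000125743, chromosome 19, 45687460 to 45692569, minus strand) was the highest member of all, with 493, 507 and 470.3 TPM in replicates 1, 2 and 3. SNRPD1 (ENSG00000167088, chromosome 18, 21612314 to 21633524, plus strand) was the lowest of the ring, with 114, 105 and 100.1 TPM in replicates 1, 2 and 3. Both were measured on over 1000 reads per replicate and their replicates did not overlap. SNRPD2 was 4.31, 4.85 and 4.70 times as high as SNRPD1 in the 3 replicates, with a mean of 4.62 ± 0.278. Between them were SNRPG at 184 ± 2.66 TPM, SNRPE at 158 ± 5.45 TPM, SNRPD3 at 157 ± 5.98 TPM, SNRPB at 134 ± 11.1 TPM and SNRPF at 128 ± 13.3 TPM. In SNRPD3, 14% of the exon length lay within exons of another gene on the same strand (ENSG00000286070), which has no match in the counts; its replicates were at 157.9, 162.3 and 150.5 TPM.

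The order within the ring moved with gene length. With the MANE Select length, SNRPD2 was at 848, SNRPF at 424, SNRPB at 395, SNRPG at 339, SNRPE at 131, SNRPD3 at 109.6 and SNRPD1 at 65.8 TPM. SNRPD2 stayed highest and SNRPD1 lowest, but the fold between them became 12.9 ± 0.777, and with the longest transcript as length it was 8.26 ± 0.497. The MANE Select transcript of SNRPD1 has 4858 bases, against 515 in SNRPD2 and 452 in SNRPF. SNRPF, whose union of exons is 2417 bases, was at 128 TPM with the union and 424 TPM with this choice. Which transcript the cells used was not measured, so a fold between 2 of these genes holds for the length it was computed with.

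U1 recognises the 5′ splice site. Its specific proteins are SNRNP70 and SNRPA, which bind stem loops of U1 RNA, and SNRPC, which contacts the paired splice site. SNRPC (ENSG00000124562, chromosome 6, 34757505 to 34773857, plus strand) was highest, with 337, 322 and 309.7 TPM in replicates 1, 2 and 3. SNRPA had 176 ± 4.15 TPM and SNRNP70 138 ± 3.38 TPM. SNRPC was 2.34 ± 0.131 times as high as SNRNP70, and 1.28 ± 0.0717 times with the MANE Select length. PRPF39, a U1-associated protein, was at 71.5, 72.9 and 72.4 TPM in replicates 1, 2 and 3. Of its exon length, 13.3% lies opposite FKBP3, which had 1375, 1509 and 1078 counts. Per kilobase of exon, FKBP3 had 608, 667 and 476 counts, and PRPF39 had 186, 221 and 161. Whether the counting used strand is not given, so reads of FKBP3 may stand among those of PRPF39, and their share was not tested.

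PRPF40B, a U1-associated protein (ENSG00000110844, chromosome 12, 49568218 to 49644666, plus strand), was the single member in the medium class, with 11.5, 14.2 and 13.5 TPM in replicates 1, 2 and 3. The counts of PRPF40B were 282, 407 and 282. Of its exon length, 48.7% lies opposite exons of FMNL3, a gene with 679, 819 and 556 counts. Whether the counting used strand is not given, so reads of FMNL3 may stand among those of PRPF40B, and their share was not tested.

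The U2 snRNP, which pairs with the branch site, had a summed level of 1949 ± 72.2 TPM over 11 genes, all in the high class. This was above the sum of the Sm ring with the union of exons but below it with the MANE Select length, at 1794 ± 47.5 against 2312 ± 46.4 TPM. SNRPA1 and SNRPB2 bind U2 RNA as a pair. SNRPA1 (ENSG00000131876, chromosome 15, 101281510 to 101295282, minus strand) was the lowest U2 gene with the union of exons, with 59.2, 59.4 and 63.7 TPM in replicates 1, 2 and 3, and SNRPB2 had 134 ± 7.52 TPM. With the MANE Select length SNRPA1 was at 131 TPM, and SNRPB2, at 89.5 TPM, was the lowest. SNRPA, the U1 relative of SNRPB2, was 1.32 ± 0.0623 times as high as SNRPB2 and 2.24 ± 0.106 times with the MANE Select length. Sequences outside the gene on 2 chromosomes, with most bases on chromosome 2, covered 96.7% of the SNRPA1 transcript at a mean identity of 98.5%. The annotated pseudogene SNRPA1P1 held 2 counts in total, against 1743 on SNRPA1. How reads that align to more than 1 place were counted is not given, and what part this has in the level of SNRPA1 was not tested.

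SF3a, made of SF3A1, SF3A2 and SF3A3, tethers SF3b to the rest of U2. SF3A3 was at 216 ± 11.9 TPM, SF3A1 at 177 ± 10.5 TPM and SF3A2 at 97.2 ± 15.8 TPM. SF3b clamps the branch site helix, and SF3B1 is its scaffold. SF3B5 (ENSG00000169976, chromosome 6, 144094884 to 144095573, minus strand) was the highest gene of SF3b and of U2, with 371, 378 and 328 TPM in replicates 1, 2 and 3. The remaining genes were SF3B4 at 231 ± 12 TPM, SF3B1 at 214 ± 4.57 TPM, SF3B6, the branch site protein p14, at 192 ± 17.5 TPM, SF3B3 at 139.6 ± 8.88 TPM and SF3B2 at 128 ± 5.03 TPM. SF3B5 was 2.80 ± 0.212 times as high as SF3B2. This difference was not seen with the MANE Select length, where SF3B5 was at 222 and SF3B2 at 238 TPM, a ratio of 0.935 ± 0.0707 that was above 1 in replicate 2 alone. SF3B5 against SF3B3, however, kept its direction in every replicate under both lengths, at 2.57 ± 0.0370 and 2.01 ± 0.0289. The 6 SF3b genes lay within 2.15 ± 0.142 times of each other with the MANE Select length, a narrower spread than in the Sm ring.

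SF1 binds the branch site first, U2AF2 (U2AF65) binds the polypyrimidine tract, and U2AF1 (U2AF35) reads the AG of the 3′ splice site. SF1 (ENSG00000168066, chromosome 11, 64764606 to 64778786, minus strand) was at 264, 252 and 263 TPM in replicates 1, 2 and 3. U2AF2 had 257 ± 5.60 TPM, and its ratio to SF1 was 0.991, 0.997 and 0.983 in the 3 replicates (0.990 ± 0.00716). Both genes thus had nearly the same level in each replicate. With the MANE Select length the ratio was 1.02 ± 0.00740, so which of the pair was higher depended on the length.

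U2AF1, the partner of U2AF2 in the dimer, had the lowest level of the 42 genes (ENSG00000160201, chromosome 21, 43092956 to 43107570, minus strand). It had 3, 14 and 4 counts, which is 0.104, 0.417 and 0.162 TPM in replicates 1, 2 and 3, and 14 of its 21 reads came from replicate 2. U2AF1 is annotated at a second place on chromosome 21 (ENSG00000275895, 6484623 to 6499248), which GENCODE release 44 gives the biotype artifact. The transcripts at both places have 945 bases and differ at 1, which is noncoding, while all 720 coding bases are identical. Coding bases 241 to 360 are shown because a read from them has no base by which it could be given to either place.
U2AF1: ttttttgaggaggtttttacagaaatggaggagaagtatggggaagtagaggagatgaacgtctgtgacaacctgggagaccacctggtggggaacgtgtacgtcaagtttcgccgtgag
second annotation: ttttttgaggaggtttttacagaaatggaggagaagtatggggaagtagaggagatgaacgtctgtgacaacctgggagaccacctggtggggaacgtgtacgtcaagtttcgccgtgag
The second annotation held 5, 13 and 3 counts, 21 in total, the same as U2AF1. Summed over both places there were 8, 27 and 7 counts, against 2755, 3069 and 2319 on U2AF2. Hence adding the second place did not bring U2AF1 near its partner. How reads that align to more than 1 place were counted is not given in the sources used here, and what part this has in the low count was not tested. The value of U2AF1 is the number of reads assigned to it, and its expression cannot be told from it. Leaving it out changed the median over the members to 134.1 TPM and their share of protein-coding TPM by less than the last digit printed.

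The U5 snRNP holds the exons in place during catalysis. Its 5 genes were in the high class, with a summed level of 876 ± 31.7 TPM. PRPF8 (ENSG00000174231, chromosome 17, 1650629 to 1684867, minus strand), the scaffold of the catalytic core, was highest, with 285, 283 and 263 TPM in replicates 1, 2 and 3. SNRNP200, the helicase BRR2 that unwinds U4 from U6, was at 239 ± 8.45 TPM, and PRPF8 was 1.17, 1.16 and 1.15 times as high in the 3 replicates. PRPF6, which bridges U5 and U4/U6, had 171 ± 3.80 TPM, and SNRNP40, a protein with WD40 repeats, had 101 ± 1.34 TPM. EFTUD2 (ENSG00000108883, chromosome 17, 44849948 to 44899445, minus strand), the GTPase SNU114, was lowest, with 91.8, 93.3 and 81.9 TPM in replicates 1, 2 and 3. PRPF8 was 3.12 ± 0.0867 times as high as EFTUD2 and 2.1 ± 0.0583 times with the MANE Select length, under which PRPF6, at 105 TPM, was the lowest of the 5. PRPF8 and SNRNP200 also had the most reads of all members, 25090 and 21022 in total, and so the smallest counting error.

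The proteins of U4/U6 and the tri-snRNP had a sum of 459 ± 8.22 TPM over 7 genes, all in the high class. PRPF31, PRPF3 and PRPF4 bind U4/U6. PRPF31 (ENSG00000105618, chromosome 19, 54115410 to 54131719, plus strand) was highest, with 116, 107 and 124 TPM in replicates 1, 2 and 3. PRPF3 (ENSG00000117360, chromosome 1, 150321479 to 150353233, plus strand) was the lowest high-class member with the union of exons, with 42.5, 41.8 and 42.4 TPM in replicates 1, 2 and 3 and a coefficient of variation (CV) of 0.888%, the smallest of the 42. With the MANE Select length PRPF3 was at 58.5 TPM, and SNRNP27, at 43.2 TPM, was the lowest. PRPF4 was at 64.3 ± 4.35 TPM. PRPF31 was 2.74 ± 0.184 times as high as PRPF3 and 1.78 ± 0.120 times with the MANE Select length. SART1 and SNRNP27 of the tri-snRNP were at 63.9 ± 4.59 TPM and 52.4 ± 2.32 TPM. The replicates of SNRNP27 were at 52.65, 49.99 and 54.63 TPM, and 12.5% of its exon length is shared with MXD1 on the same strand, which had 60, 39 and 43 counts. PRPF38A, which joins before activation, was at 66.2 ± 2.31 TPM and the related PRPF38B at 54.3 ± 1.63 TPM. Their ratio of 1.22 ± 0.0278 turned to 0.909 ± 0.0207 with the MANE Select length.

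Of the exon length of PRPF31, 31.3% lies opposite exons of the lncRNA gene PRPF31-AS1. PRPF31-AS1 had 411, 425 and 384 counts, or 98.8, 102.2 and 92.4 per kilobase of exon, and PRPF31 had 302, 324 and 276 per kilobase. Without the strand setting of the counting, reads of the 2 genes cannot be told apart where they overlap.

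The last 3 members act at other steps. PRPF19 (ENSG00000110107, chromosome 11, 60890547 to 60906585, minus strand), the ubiquitin ligase of the Prp19 complex (NTC), had 272, 270.2 and 241 TPM in replicates 1, 2 and 3. PRPF4B, a kinase that phosphorylates tri-snRNP proteins, was at 86.1 ± 1.56 TPM. PRPF18 (ENSG00000165630, chromosome 10, 13586939 to 13668445, plus strand), a factor of the second catalytic step, had 2.1, 2.08 and 2.24 TPM in replicates 1, 2 and 3, from 67, 77 and 61 counts. PRPF19 was above PRPF18 by a factor of 122 ± 12.9, or of 20.8 ± 2.20 with the MANE Select length, since the union of exons of PRPF18 is 12262 bases and its MANE Select transcript 1670. Under that length PRPF18 was at 9.71 TPM and remained below the high class, with 39 members in it. Of the exon length of PRPF18, 15.9% lies opposite FRMD4A, which had 430, 496 and 286 counts. Per kilobase of exon, FRMD4A had 29.2, 33.7 and 19.4 counts, and PRPF18 had 5.46, 6.28 and 4.97. Without the strand setting, reads of FRMD4A may stand among those of PRPF18, and their share was not tested.

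Across all 42 genes, the order of levels was nearly the same in each replicate, with Spearman's rho from 0.987 to 0.997 between 2 replicates, as a description over genes that share their libraries. Of the 861 pairs of members, 803 (93.3%) had replicate values that did not overlap. Neighbours in the order were harder to tell apart, and 28 of 41 neighbouring pairs overlapped. SNRPD2 stood above SF3B5, and SNRPC above PRPF8, without overlap. From PRPF8 through PRPF19 and SF1 to U2AF2, each overlapped with the next, as did the run from SF3B3 down to PRPF4B, which holds 13 genes between 139.6 and 86.1 TPM. At the lower end, the 4 genes PRPF3, PRPF40B, PRPF18 and U2AF1 were apart from each other. The order also moved with gene length, and Spearman's rho between the mean levels under both lengths was 0.807 (n = 42). The union of exons was a median of 1.55 times the MANE Select length in the members, 1.41 times in the high class and 1.32 times in protein-coding genes. It was at least 2 times as long in 13 of the 42 members and in 22.4% of the high class.

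**Figure D3:**
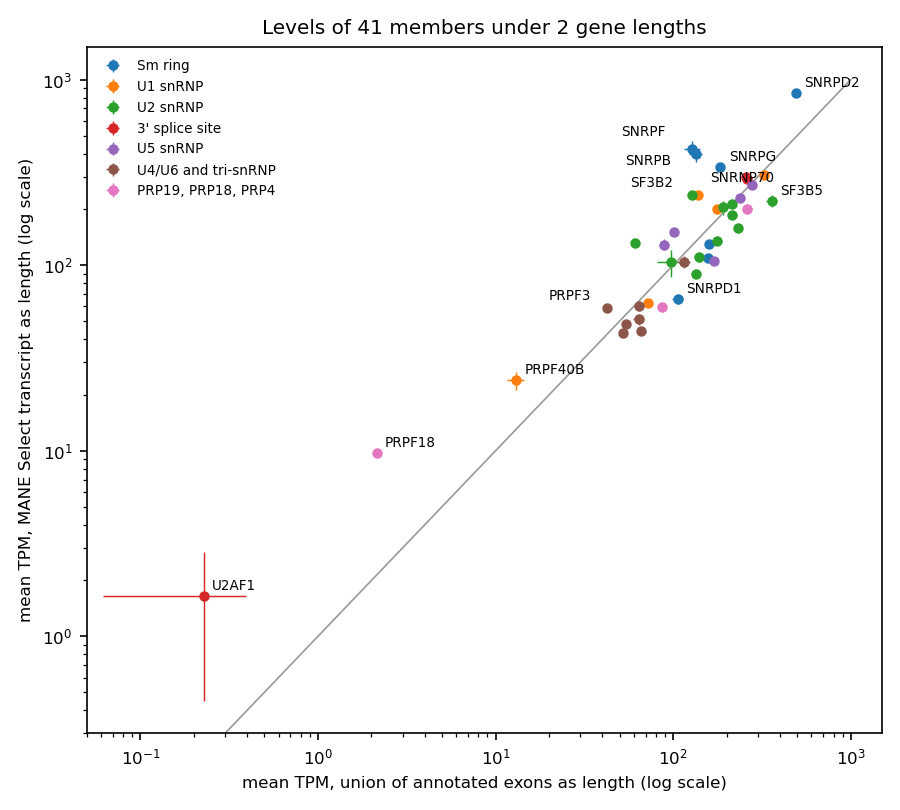
Mean TPM of 41 of the genes with the union of exons as length (x, log axis) against that with the MANE Select transcript (y, log axis), coloured by complex, with bars of 1 SD over 3 replicates and a line of equal values. SNRPF, SNRPB and SNRPD2 lie above the line, SNRPD1 and SF3B5 lie below it, and U2AF1 and PRPF18 are lowest under both lengths.

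Copies of the members elsewhere in the genome held few reads. For 15 members, 66 annotated pseudogenes were found by name, among them 20 of SNRPG, 18 of SNRPC and 10 of SNRPE. Together they had 48 counts, which is 0.0861% of the 55717 on those members, and 45 of them had none. A level above 3 counts in each of the replicates was reached by no pseudogene; 3 is the limit that a count of 0 allows. A sequence of at least 50 bases with at least 98% identity outside the gene was found for 10 members. It covered over 50% of the transcript in U2AF1 and SNRPA1. Few counts on a copy do not show how reads shared with it were treated. No exonic overlap with another gene was annotated for 23 members, and 6 had one of at least 10%.

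Other genes of splicing were set beside the 42. All 8 spliceosomal helicases were in the high class, from DHX8 at 44.7 to DHX15 at 200.4 TPM, as were all 6 other tri-snRNP genes, from PPIH at 28.4 to SNU13 at 148 TPM, and all 7 factors of the second step, from CDC40 at 35.5 to PPIL1 at 248 TPM. In the LSm ring, which binds U6 in place of Sm proteins, 6 of 7 genes were, with LSM4 highest at 197 and LSM8 lowest at 8.58 TPM. LSM8 had 380, 452 and 333 counts over a union of exons of 17309 bases. LSM6 had fewer counts, 359, 400 and 270, over 3975 bases, and was at 32.85 TPM. The NTC and its related proteins had 12 of 14, between ISY1 at 8.06 and HSPA8, which is also a general chaperone, at 1689 TPM. Of the genes of snRNP assembly, 10 of 14 were in the high class, with STRAP highest at 489 TPM. SMN2 was lowest at 2.16 TPM, but SMN1 and SMN2 are near-identical copies, between which the counting could have split reads. The proteins of the minor spliceosome, which removes the rare U12-type introns, had the lowest median, 15.6 TPM, with 3 of 8 in the high class, from ZMAT5 at 5.49 to SNRNP25 at 82.1 TPM. In contrast, the medians of the LSm ring and the helicases were 85.1 and 78.3 TPM. These lists were not compared by a test. Their levels and medians are given with the union of exons only, and how they move with gene length was not tested.

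**Figure D4:**
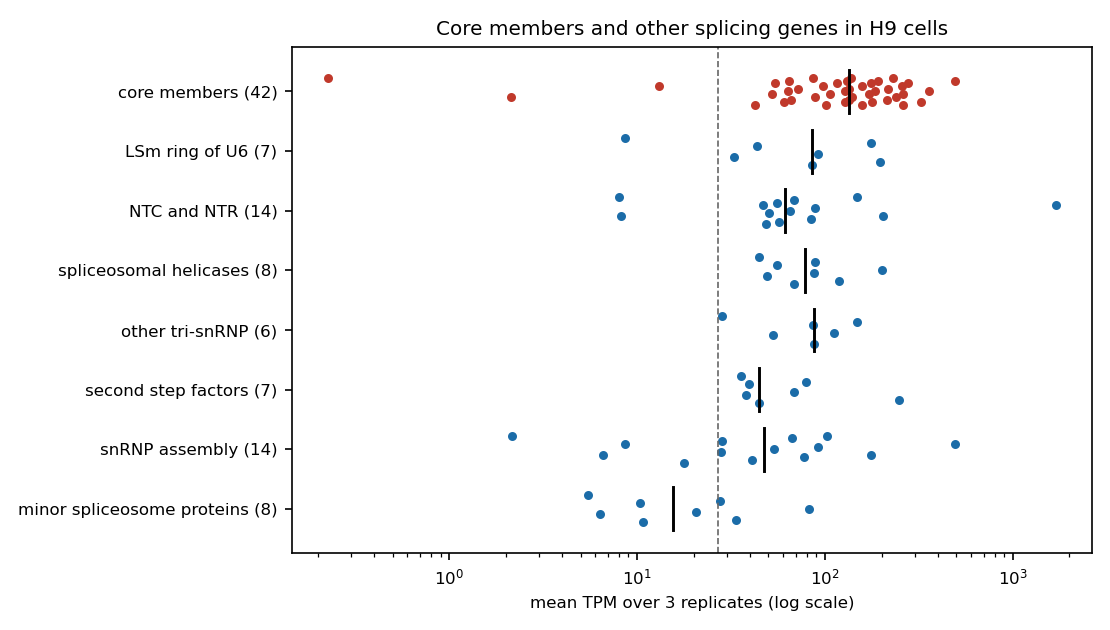
Mean TPM over 3 replicates (log axis) of the 42 core genes and of the genes of 7 other splicing lists, with the number of genes in brackets, 1 point per gene (vertical offsets carry no value), the median as a black line and the lower boundary of the high class as a dashed line. The core genes have a median of 134.0 TPM and the minor spliceosome proteins one of 15.6 TPM.

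The RNAs of the snRNPs were counted unevenly. Of 20 genes of the major spliceosomal RNAs, 7 had more than 3 counts in every replicate and 8 had none. RNU4-2 was highest, with 314, 466 and 303 counts, and RNU4-1 had 168, 221 and 140. No U1, U2 or U6 gene had more than 6 counts in any replicate, although every splicing cell holds these RNAs, so the amount of snRNP RNA cannot be read from these counts.

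The levels of the members varied little between replicates. Their median CV was 4.35%, against 5.03% in the high class and 9.32% in expressed protein-coding genes, and 23 of the 42 were under 5% (49.6% of the high class). Without replicate 3 the medians were 1.91%, 2.86% and 6.08%. The CV includes counting error, which falls as counts rise, so these medians do not show that the members were steadier than other genes. Above 10% were U2AF1 at 73.1%, SF3A2 at 16.3%, PRPF40B at 10.9% and SNRPF at 10.4%. Whether counts differed by more than counting error was tested by chi-square against the library totals, with Benjamini-Hochberg adjustment over 13947 protein-coding genes with at least 20 counts. The test called 10 of the 42 members (23.8%), among them SF3A2, SNRPB, SF3B3, PRPF8, EFTUD2, SNRPF, SF3A1, PRPF31 and PRPF19. Of all genes tested 13.8% were called, and of the high class, where counts are larger, 22.9%. The chi-square per degree of freedom had a median of 2.67 in the members, 1.88 in the high class and 1.33 in all genes tested. The share among the members was thus close to that of the high class, whose median of 60.7 TPM is below the 134.0 TPM of the members. No share was computed for genes matched to the members in level.

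The calls rested on replicate 3. Without replicate 3, the chi-square test called 0 of 41 members and 1.5% of all genes. Its unadjusted p was then below 0.05 in 7 of the 41 members and in 11.3% of all genes. It called 10 members (24.4%) without replicate 1 and 10 (24.4%) without replicate 2, against 11.2% and 12.5% of all genes. Levels in replicate 3 were compared with the mean of replicates 1 and 2 as a log2 ratio of counts scaled by library totals (CPM), for the 40 members that had 100 or more counts in all replicates. The median was -0.03 over the members and -0.00031 over 9386 protein-coding genes, and 27 of 40 members (67.5%) were below 0, against 50.1% of all. With DESeq2 scaling both medians moved down together, to -0.0750 and -0.0436. The largest ratio was that of SF3A2, at 0.38, and the lowest that of SNRPF, at -0.22.

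SF3A2 had nearly the same number of reads in every library, 696, 693 and 704, although the totals differed, and so its levels were 95.8, 82.1 and 113.7 TPM (adjusted p = 4.68e-08 by chi-square). Its exons have the highest GC content of the members, 64.6%, and those of SNRPF the lowest, 35.4%. Over the 40 members, Spearman's rho between exon GC content and the ratio was 0.311, and over the 9386 genes 0.418, as a description across genes of the same libraries. The 10 members with at least 55% GC had a median ratio of 0.07 (0.15 in all such genes), and the 9 with under 40% had -0.04 (-0.04). Single ratios ran from -0.16 to 0.38 in the former and from -0.22 to 0.12 in the latter. With each replicate corrected in 20 bins of exon GC content, the ratio was 0.09 in SF3A2 and -0.19 in SNRPF. With this correction 4 members were called, SNRPB, SF3B3, PRPF19 and U2AF2, and 7.68% of all genes. SNRPB, SF3B3 and PRPF19 were called both with and without the correction, and U2AF2 only with it. SNRPB was at 130.8, 125.0 and 146.5 TPM and has an exon GC content of 45.6%. GC content was not tested as the source of these differences.

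**Figure D5:**
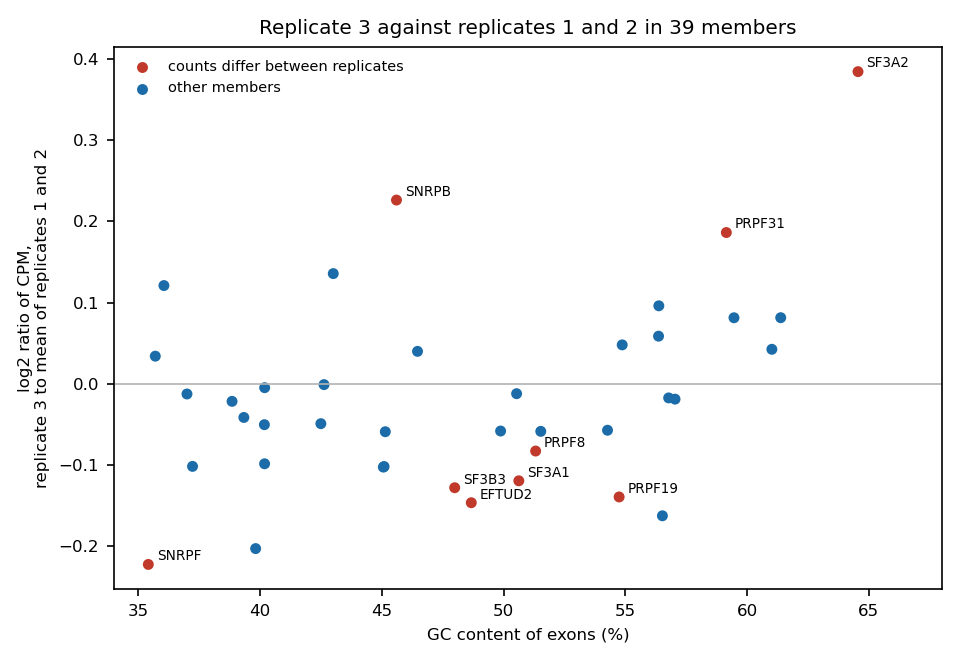
Log2 ratio of CPM in replicate 3 to the mean of replicates 1 and 2 (y) against GC content of exons in percent (x) for 39 members, with those whose counts differed between replicates by chi-square in red and named. SF3A2, with the highest GC content, has the largest ratio, 0.38, and SNRPF, with the lowest, the smallest, -0.22. Members with under 40% GC range from -0.22 to 0.12.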

How the data were processed

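RNA-seq libraries depleted of ribosomal RNA were made from 3 H9 replicates. The authors trimmed reads (Trim Galore 0.4.4), aligned them to GRCh38 (TopHat2 2.1.1, per the labels) and deposited whole-number counts of reads per gene, without normalization. Which tool counted the reads, with which annotation and strand setting, is not given in the sources used here. The TPM that the study made with Cufflinks 2.2.1 were not used.

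Identifiers were joined to GENCODE release 44, which matched 56948 (98.1%). TPM was computed from the counts and the union of exons. The classes follow the study's methods, with a nonexpressed class under 0.01 TPM and 3 quantiles above it, here of protein-coding genes. Log2 ratios used a pseudocount of 0.5 counts. Totals of 8655155 to 12024802 counts limit precision at low levels, and intervals and limits cover counting error only. The members and lists were chosen with earlier results of these data known. Every member was named but 1, which enters the counts and medians and is otherwise not reported here; values per replicate were given for the highest and lowest of each complex, for members outside the high class, with at least 10% exonic overlap or with a copy holding over 10% of their counts, and the highest and lowest gene of each other list was named. Any other gene or value, such as SNRPA1P1, SMN1 and the promoters printed, was chosen after values were seen. The head-to-head distance was 1000 bases.

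With 1 condition, edgeR (version 4.0.16) and DESeq2 (version 1.42.0) gave scaling factors only. The chi-square test was run on simulated counts for 19629 protein-coding genes, which held counting error alone. It recovered 74.0% of genes changed 1.25-fold in replicate 3 and 100% of those changed 1.5-fold, and called 0.0582% of unchanged genes. The changed genes were drawn from genes with high counts only, so recovery at low counts, as in PRPF18 and U2AF1, was not tested. Of genes in a simulation of levels, 96.1% received their class. Software was Python 3.11.15 with scipy 1.17.1, matplotlib 3.10.9, pandas 2.3.3 and numpy 2.4.6, beside blastn 2.17.0, R 4.3.3 and bedtools 2.31.1. Alternatives were other gene lengths, CPM, TMM or DESeq2 scaling, mitochondrial genes left out, other filters, classes, centres and pseudocounts, GC correction and leaving out each replicate; leaving out U2AF1 was added after seeing the data.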

Additional observations from a re-analysis of the deposited data

Results flagged for a closer look

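Counts on 2 genes outside the 42 were singled out because their total over the replicates is above the 3 counts that a count of 0 allows, beside a member. PRPF31-AS1, on the opposite strand of PRPF31, had 1220 counts in total. The second annotation of U2AF1 had 21 counts in total, the same number as U2AF1, and was above 3 in replicates 1 and 2 but not in replicate 3.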

How the results depend on the processing

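The number of members in the high class was 38 with CPM, 40 with all genes classified and 39 under every other alternative run. The median of the members' mean levels moved from 134.0 TPM to 142.9 TPM with the longest transcript as length, to 67.5 TPM with exonic bases shared with no other gene, to 100.5 CPM, to 139.6 TPM without mitochondrial genes and to 151.5 TPM as a mean over members. Their share of protein-coding TPM moved from 0.788% to 0.817% with the longest transcript, 0.825% with the MANE Select transcript, 0.722% with unshared bases and 0.820% without mitochondrial genes. The median CV of 4.35% was 6.65% as a mean over members, and 1.91% to 5.13% with a replicate left out, lowest without replicate 3. The number of members whose counts differed between replicates fell from 10 to 4 with correction for exon GC content. It was 0 to 10 with a replicate left out, where 1.5% to 12.5% of all genes tested were called. It was 14 (33.3%) with TMM and 13 (31.0%) with DESeq2 scaling, where 14.3% and 15.6% of all genes tested were called. The median log2 ratio of replicate 3 was -0.0750 with DESeq2 scaling, against -0.03, while that of all genes moved to -0.0436. The causes of these shifts were not tested. The setting with unshared bases kept all counts of a gene and shortened its length alone. SF3B5 and PRPF6, which have no exonic overlap, moved with it from 359 to 174 TPM and from 171 to 82.9 TPM. Levels under that setting are thus not on the scale of the others. Mean levels of single members moved by more than their SD in 37 of 42 with the MANE Select length (16 up, 21 down), 35 with the longest transcript (21 up, 14 down), 40 with unshared bases (all down) and none with TMM or DESeq2 scaling. No paired analysis was possible because all replicates belong to 1 condition. Depth limited PRPF18 and U2AF1, the 2 members with fewer than 100 counts in every replicate.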
